A study of Mus musculus with 6 samples.

Results

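The genes described here encode the non-collagen part of the extracellular matrix: fibronectin, proteoglycans, matricellular proteins, elastic fibre proteins, basement membrane proteins, lysyl oxidases and latent TGF-β binding proteins. The 41 genes were taken by symbol from a table of 55487 genes, and each symbol matched 1 row. Liver RNA came from male mice of the strain given as C57/Bl6J, all on a high-fat diet (HFD), with 3 libraries from control mice and 3 from mutant mice. The genotype label of the controls is Alb cre +/-, and that of the mutants adds RXRa f/f, so both groups carry the Cre transgene, whose albumin promoter drives it in hepatocytes. The titles call the controls WT and the mutants Cre, whereas the design text speaks of an S65A mutant of Rxra. Rxra encodes RXRα, the dimer partner of many nuclear receptors. Age, time on the diet and pooling of animals are not given in the labels, and whether each library is 1 animal is not stated there. The p-values therefore measure the spread between these libraries.

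The matrix is a meshwork that surrounds cells and carries signals to them. In liver it is thin along the sinusoids and denser around portal tracts and veins. Stellate cells, portal fibroblasts and endothelial cells are known to make most of its structural proteins, while hepatocytes are the main source of the fibronectin that circulates in plasma. Basement membranes are sheets of laminin, nidogen, perlecan and agrin. Elastic fibres consist of an elastin core within fibrillin microfibrils, joined by fibulins and cross-linked by lysyl oxidases. Matricellular proteins bind to the matrix and to cells and change how cells attach, and their expression is known to rise in injured tissue.

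Of the 41 matrix genes 39 had enough counts to be tested, and 17 of these fell in the mutant livers while 22 did not pass. The percentage of all tested genes that fell was 6.82%. None of the matrix genes rose, against 6.64% of all tested genes, by edgeR's quasi-likelihood test at a Benjamini-Hochberg adjusted p under 0.05. With DESeq2 21 members were lower and 0 higher, against 10.3% and 9.46% of all tested genes. The one gene with a positive estimate was Fn1, which encodes fibronectin, at an unadjusted p of 0.183, so at an unadjusted p under 0.05 the count of higher members was 0 as well. The median log2 fold change of the 39 tested genes, mutant against control, was -0.99, beside 0.00 for all tested genes. A log2 fold change below 0 was found in 38 of the 39, against 50% of all tested genes. At least 2-fold decreases that passed the test numbered 13, against 4.03% of all tested genes. In 25 of the 39 every mutant library lay below every control library on the scaled count scale, a pattern seen in 17.5% of all tested genes. Of these 25, 17 passed the test and 8 did not. In bulk liver RNA, fewer cells of a type and less RNA per cell cannot be told apart.

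Levels are given as CPM, counts set to a common library size after TMM scaling. This scaling takes the typical gene as equal in both groups, so each change is relative to that gene. Library totals ranged from 35847386 to 43162557 estimated counts. Major urinary protein genes took 1.85% to 3.09% of the counts in the controls and 12.8% to 16.9% in the mutants. With plain library totals the median log2 fold change of all tested genes was -0.40, and 27 members were called lower and 0 higher, against 31.6% and 2.05% of all tested genes. In limma on log2(TPM + 1), where that median was -0.48, 23 of the 25 members tested were lower and 0 higher, against 63.6% and 1.88% of all genes tested there. That fit kept genes with at least 1 TPM in at least 3 libraries. Some members, Postn and Loxl2 among them, reached this in the controls alone. Their entry favoured decreases, so this count is not a separate check. Rxra itself had 414 to 501 CPM in the controls and 522 to 700 CPM in the mutants and did not pass (edgeR adjusted p = 0.0724), and with 62397 and 62496 counts in all its transcript was still counted in the mutants. Gene-level counts do not show its altered part. Calls followed abundance: 11 of 14 members with a mean above 5 CPM fell, and 6 of 25 at or below that level. For all tested genes the corresponding percentages that fell were 6.90% and 6.67%. The mean used for this split is over both groups, so a decrease itself lowers it. A member that did not pass at a low level may still have differed by an amount that 3 libraries a group could not resolve, which was not tested.

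**Figure D1:**
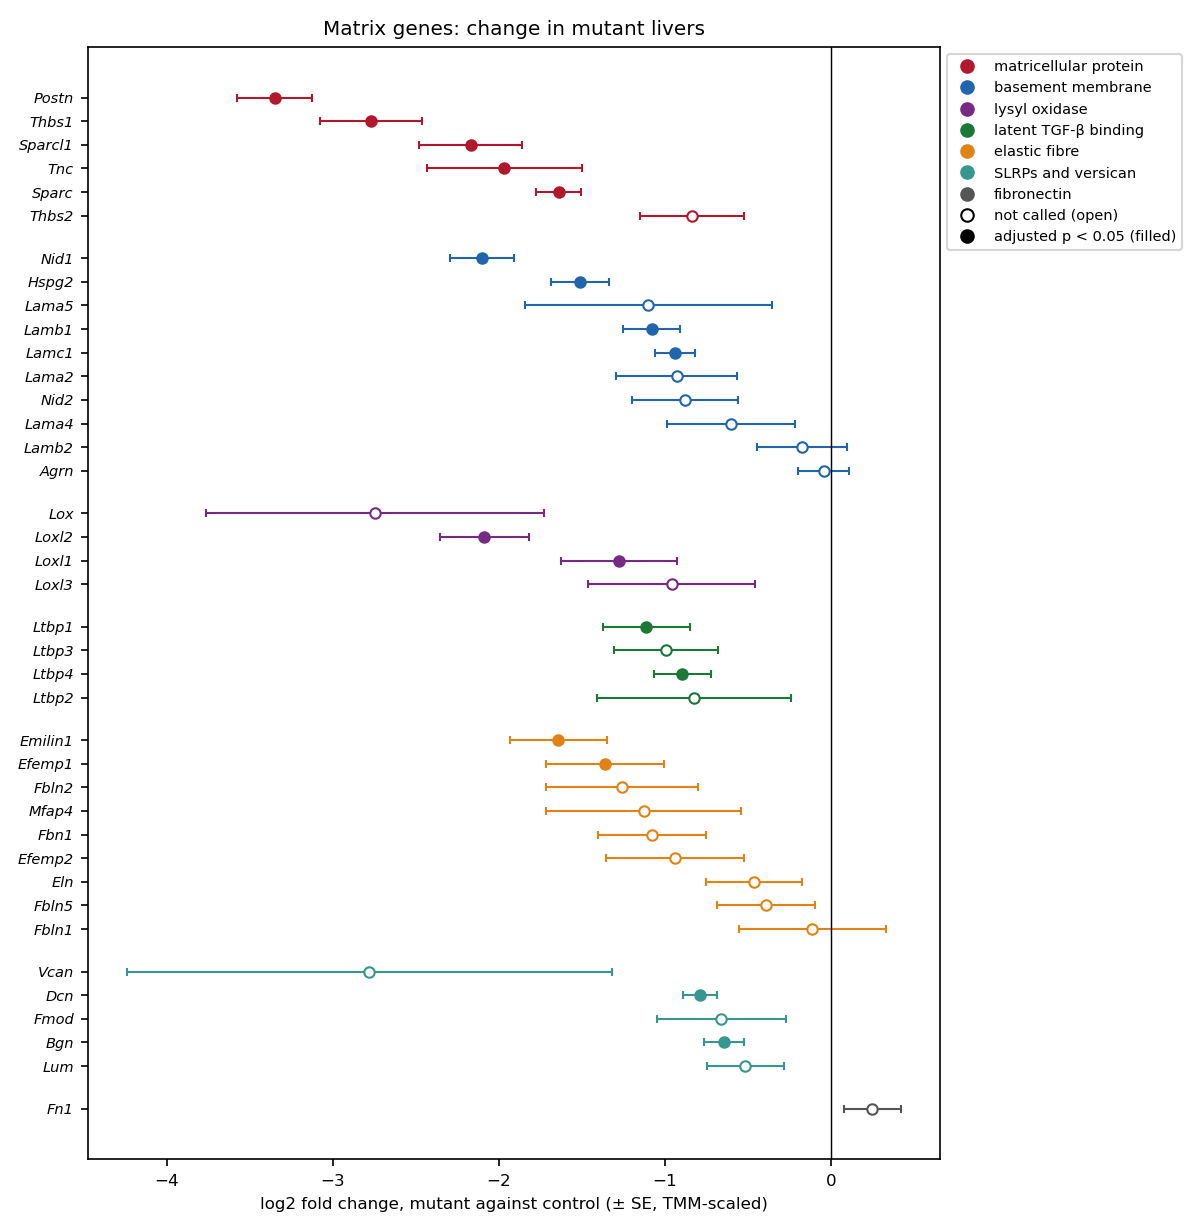
Log2 fold change of mutant against control (horizontal axis, TMM-scaled, bars are standard errors) for the 39 tested matrix genes, grouped by role, with filled points for an adjusted p under 0.05. Of the 39 points, 38 lie left of 0, from Postn at -3.35 to Agrn at -0.04, and Fn1 lies to the right at 0.25.

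Matricellular proteins held the 3 largest decreases among the genes called. Of their 6 genes 5 fell, and the median log2 fold change of the 6 was -2.07. The counts by role here and below stand beside 6.82% of all tested genes lower, and each role holds few genes. Postn encodes periostin, a protein of fibroblasts in remodelling tissue that binds integrins and collagen. Control replicates 1 to 3 held 9.53, 12.6 and 14.7 CPM of it, and mutant replicates 1 to 3 held 1.20, 1.27 and 1.13 CPM. The mutant libraries lay close together and far below the lowest control, and Postn was 10.2-fold lower (log2 fold change -3.35 ± 0.23, SE, edgeR adjusted p = 2.5e-04). Thbs1 encodes thrombospondin 1, which can activate latent TGF-β. Its level was 4.22, 3.25 and 4.39 CPM in the controls and 0.654, 0.558 and 0.516 CPM in the mutants, a 6.82-fold decrease (log2 fold change -2.77 ± 0.31, edgeR adjusted p = 0.00137). The groups did not overlap. Thbs2, its close relative, did not pass, with 4.31, 3.43 and 4.61 CPM in the controls and 1.73, 3.32 and 1.87 CPM in the mutants (edgeR adjusted p = 0.117).

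Sparc encodes osteonectin, a collagen-binding glycoprotein, and Sparcl1 its relative hevin. Sparc had 53.4, 53.1 and 64.1 CPM in the controls and 18.3, 20.6 and 15.9 CPM in the mutants, so that the highest mutant library held less than the lowest control. Its decrease was 3.11-fold (log2 fold change -1.64 ± 0.14, edgeR adjusted p = 4.9e-04). For Sparcl1 the values were 7.44, 7.20 and 7.65 CPM in the controls against 1.65, 2.32 and 0.967 CPM in the mutants, 4.50-fold lower (edgeR adjusted p = 0.00413). Tnc encodes tenascin C, a glycoprotein of wound and tumour stroma. It fell from 1.18, 1.39 and 2.47 CPM to 0.366, 0.403 and 0.516 CPM (log2 fold change -1.97 ± 0.47, edgeR adjusted p = 0.0298), again without overlap. Its call was lost on leaving out any of the 6 libraries in turn (adjusted p from 0.0509 to 0.114), while the calls of Postn, Thbs1, Sparc and Sparcl1 held in each of those fits.

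The sequence before the start of Postn is shown because this gene had the largest decrease among those called. It covers chr3:54360857-54361106 on the plus strand of GRCm38.p6 (RefSeq), 250 bases that end next to the annotated start, and the capitals mark a TATA box (TATAAA), which sets the start of transcription in many tissue-restricted genes.
Postn: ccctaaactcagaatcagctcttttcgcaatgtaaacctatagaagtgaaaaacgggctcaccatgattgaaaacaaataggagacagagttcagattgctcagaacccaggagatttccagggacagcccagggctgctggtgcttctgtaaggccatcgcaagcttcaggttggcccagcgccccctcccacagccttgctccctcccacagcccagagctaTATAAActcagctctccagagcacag
This motif occurred in the promoters of 3 of the 26 members that the promoter table holds (Postn, Thbs2 and Tnc), searched on both strands from 250 bases before to 50 after the start. It is held by 15.7% of the promoters of all listed genes, and 9.45% of those of the tested genes. A match describes letters and not a bound site.

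**Figure D2:**
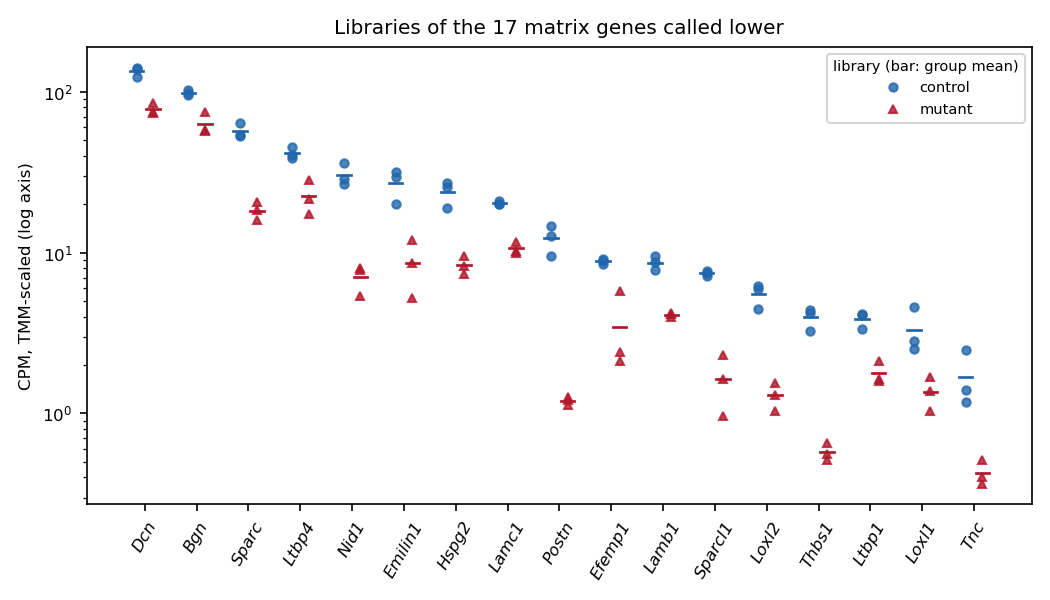
TMM-scaled CPM (vertical log axis) of the 17 matrix genes called lower, ordered by their control mean, with 1 symbol per library and a bar at the group mean. In each of the 17 genes all 3 mutant libraries lie below all 3 control libraries, and the gap is widest for Postn and Thbs1.

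Basement membrane genes fell in 4 of 10 cases, with a median log2 fold change of -0.93 over the 10. Nid1 encodes nidogen 1, which links the laminin network to collagen IV. It had 28.5, 26.6 and 35.8 CPM in the controls and 5.39, 7.84 and 8.0 CPM in the mutants, with a wide gap between the groups. The decrease was 4.29-fold (log2 fold change -2.10 ± 0.19, edgeR adjusted p = 6.2e-04). Hspg2, the gene of the heparan sulfate proteoglycan perlecan, fell from 25.7, 19.0 and 27.0 CPM to 9.55, 7.34 and 8.25 CPM (2.85-fold lower, edgeR adjusted p = 0.00164), and again the groups did not overlap.

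Laminins are trimers of an α, a β and a γ chain. The β1 chain gene Lamb1 fell from 8.75, 7.74 and 9.49 CPM to 3.95, 4.18 and 4.16 CPM (2.11-fold lower, edgeR adjusted p = 0.00648). The γ1 chain gene Lamc1 fell from 20.1, 20.9 and 20.0 CPM to 9.92, 10.2 and 11.7 CPM (1.92-fold lower, edgeR adjusted p = 0.00261). In both genes the libraries of each group lay close together and the groups were apart. The β2 chain gene Lamb2 did not pass, with 3.83, 5.36 and 4.52 CPM in the controls and 5.39, 3.01 and 3.74 CPM in the mutants (log2 fold change -0.17 ± 0.27, edgeR adjusted p = 0.730), where the groups overlapped. None of the 3 α chain genes passed. For Lama2, the α chain of muscle and nerve laminin, the groups did not overlap (2.24 to 2.50 CPM in the controls, 0.871 to 1.78 CPM in the mutants, unadjusted p = 0.0328, edgeR adjusted p = 0.133). DESeq2 called none of the α chain genes either, and at library totals Lama2 was called. Lama4, an α chain of vessel walls, ranged from 1.93 to 3.67 CPM in the controls and from 1.24 to 2.67 CPM in the mutants. Lama5, the α chain of many epithelia, varied widely, with 1.09, 7.27 and 5.38 CPM in the controls and 1.49, 0.744 and 4.19 CPM in the mutants. Nid2, which encodes nidogen 2, had 3.24 to 5.16 CPM in the controls and 1.55 to 3.10 CPM in the mutants and did not pass (edgeR adjusted p = 0.109).

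Agrn encodes agrin, like perlecan a heparan sulfate proteoglycan of basement membranes. It had 31.2, 36.6 and 32.6 CPM in the controls and 27.2, 30.7 and 39.5 CPM in the mutants, with overlapping groups (log2 fold change -0.04 ± 0.15, edgeR adjusted p = 0.882). The sign of this estimate turned without control replicate 2 or without mutant replicate 1. At library totals Agrn was called lower (log2 fold change -0.44, edgeR adjusted p = 0.0492), close to the shift of the typical gene at that scaling. Within a library the ratio of Hspg2 to Agrn does not depend on the scaling. In TPM it was 0.829, 0.522 and 0.835 in the controls and 0.353, 0.241 and 0.210 in the mutants, so the perlecan gene was lower relative to the agrin gene in all 3 mutant libraries.

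Upstream sequences of Nid1, Hspg2 and Agrn are set side by side because the first pair fell and the last did not pass. They are from RefSeq on GRCm38.p6, trimmed to end before the start annotated in GENCODE as well. Capitals mark the GC box (GGGCGG, or CCGCCC on the other strand), a site of the Sp1 family, and in Nid1 also a TEAD motif (GGAATG). Nid1 is read from chr13:13437352-13437550 on the plus strand, Hspg2 from chr4:137468553-137468768 on the plus strand and Agrn from chr4:156197489-156197738 on the minus strand.
Nid1: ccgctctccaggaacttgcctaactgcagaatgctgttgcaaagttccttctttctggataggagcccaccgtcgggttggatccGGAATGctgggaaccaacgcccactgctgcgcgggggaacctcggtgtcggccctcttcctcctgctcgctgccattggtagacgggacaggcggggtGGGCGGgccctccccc
Hspg2: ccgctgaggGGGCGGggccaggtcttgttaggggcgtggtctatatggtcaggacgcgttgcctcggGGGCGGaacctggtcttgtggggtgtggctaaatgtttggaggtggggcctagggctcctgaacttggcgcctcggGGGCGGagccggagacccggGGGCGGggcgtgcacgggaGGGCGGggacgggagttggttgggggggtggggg
Agrn: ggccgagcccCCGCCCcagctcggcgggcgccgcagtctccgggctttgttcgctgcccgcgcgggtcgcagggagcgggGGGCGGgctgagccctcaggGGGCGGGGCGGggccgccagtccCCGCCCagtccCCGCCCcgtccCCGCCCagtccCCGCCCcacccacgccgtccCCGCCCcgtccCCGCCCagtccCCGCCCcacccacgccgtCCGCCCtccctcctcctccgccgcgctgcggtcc
The GC box occurred 1 time in the Nid1 stretch, 5 times in that of Hspg2 and 12 times in that of Agrn, counting overlapping matches. It was present in the promoters of 18 of 26 members (69.2%) and in 65.8% of those of all tested genes in the table. The TEAD motif was in 2 of the 26, Nid1 and Mfap2, against 14.6% of the tested genes. AP-1 letters (TGANTCA) were in 2 of 26, Efemp1 and Ltbp3, against 6.53%. The nuclear receptor half-site AGGTCA was in 4 of 26 (15.4%), namely Efemp2, Fbln5, Mfap2 and Postn, the last at a second annotated start, against 15.7% of the tested genes. The direct repeat of that half-site spaced by 1 base and the SMAD palindrome (GTCTAGAC) had 0 matches in the 26, and 0.0649% and 0.278% in the tested genes. Letters missing from this short window say nothing about a factor elsewhere.

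Among lysyl oxidases, the copper enzymes that cross-link collagen and elastin, 2 of 4 fell, with a median log2 fold change of -1.68. Loxl2 had 5.92, 4.49 and 6.16 CPM in the controls and 1.31, 1.55 and 1.03 CPM in the mutants, with the highest mutant library far below the lowest control (4.25-fold lower, edgeR adjusted p = 0.00266). Exons of Loxl2 overlap those of Gm27177 on the other strand, to which 303 counts were assigned in all controls together and 38 in all mutants. The strandedness of the libraries is not given in the sources used here, so reads of this pair may not be separated. Loxl1, an enzyme of elastic fibre upkeep, fell from 2.83, 4.60 and 2.52 CPM to 1.39, 1.67 and 1.03 CPM (edgeR adjusted p = 0.0465), a call lost on leaving out any of the 6 libraries (adjusted p from 0.0648 to 0.156). Lox, the founding member, was near the limit of detection, with 0.501, 1.03 and 1.39 CPM in the controls and 0, 0.372 and 0.0645 CPM in the mutants. Those values rest on 131 counts summed over the control libraries and 14 over the mutant ones. Its estimate of -2.75 ± 1.02 did not pass (edgeR adjusted p = 0.114) although the groups did not overlap, and it passed with DESeq2. Loxl3 ranged from 0.832 to 2.11 CPM in the controls and from 0.548 to 1.02 CPM in the mutants and did not pass.

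Latent TGF-β binding proteins hold the growth factor in the matrix in inactive form and belong to the fibrillin family. All 4 genes had negative estimates, from -0.82 to -1.11, and 2 fell. Ltbp4 had 40.7, 45.1 and 38.9 CPM in the controls and 17.5, 21.4 and 28.1 CPM in the mutants (1.86-fold lower, edgeR adjusted p = 0.0136). Ltbp1 fell from 4.09, 4.13 and 3.35 CPM to 1.65, 1.58 and 2.13 CPM (2.16-fold lower, edgeR adjusted p = 0.0290). Neither pair of groups overlapped, but without control replicate 2 neither gene passed, so that 0 of the 4 were called. Over the leave-one-out fits the adjusted p ran from 0.00611 to 0.0515 for Ltbp4, and from 0.0359 to 0.0945 for Ltbp1, which passed in the fit without mutant replicate 3 alone. Ltbp3 had 2.79, 3.93 and 2.52 CPM in the controls against 1.47, 1.3 and 1.87 CPM in the mutants and did not pass (edgeR adjusted p = 0.0714). Ltbp2, which does not bind latent TGF-β despite its name, ranged from 0.501 to 2.05 CPM and from 0.496 to 0.864 CPM.

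Elastic fibre genes numbered 11, and of the 9 tested 2 fell, with a median log2 fold change of -1.08 over the 9. Emilin1 encodes a glycoprotein at the elastin and microfibril interface. It had 20.1, 31.6 and 29.5 CPM in the controls and 12, 5.24 and 8.67 CPM in the mutants, without overlap (3.12-fold lower, edgeR adjusted p = 0.0104). Efemp1, which encodes fibulin 3, was tight in the controls (9.07, 8.52 and 8.82 CPM) and spread in the mutants (2.41, 5.76 and 2.13 CPM). Its decrease (log2 fold change -1.36 ± 0.36, edgeR adjusted p = 0.0409) passed in the leave-one-out fit without mutant replicate 2, the highest mutant library, and in no other such fit, and the adjusted p ran from 0.00210 without that library to 0.123. The microfibril backbone gene Fbn1 had 4.42, 3.07 and 3.91 CPM against 1.94, 1.15 and 2.32 CPM; it missed the threshold in edgeR's test (adjusted p = 0.0641) and passed with DESeq2.

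Fbln2 (fibulin 2) ranged from 2.61 to 3.37 CPM in the controls and from 0.707 to 2.32 CPM in the mutants, and Mfap4, a microfibril-associated glycoprotein, from 1.00 to 1.32 CPM and from 0.193 to 0.930 CPM. In neither did the groups overlap, and neither passed (edgeR adjusted p = 0.111 and 0.246). Efemp2 (fibulin 4), an adaptor of lysyl oxidase, had 1.75 to 4.44 CPM and 1.10 to 2.11 CPM. Elastin itself, Eln, had 2.57 to 4.75 CPM and 2.32 to 2.93 CPM, and its binding partner Fbln5 (fibulin 5) had 4.49 to 7.22 CPM and 3.13 to 5.64 CPM. The groups overlapped in these 3 genes, and their adjusted p ran from 0.178 to 0.430. Fbln1 (fibulin 1) had 0.958, 1.95 and 1.01 CPM in the controls and 1.02, 1.61 and 1.00 CPM in the mutants, so the libraries of both groups were intermingled. Its estimate of -0.11 ± 0.44 turned positive without control replicate 2 or mutant replicate 3. The microfibril genes Mfap2 and Mfap5 were too low to test. Mfap2 had 30 counts in the 3 controls together and 16 in the 3 mutants. Mfap5 had 9 counts in control replicate 3 and 0 counts in the other 5 libraries, and a count of 0 over the mutants allows up to 3 counts.

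The small leucine-rich proteoglycans decorin and biglycan had the highest levels per length after fibronectin and the smallest decreases among the 17 genes called. Of the 5 proteoglycan genes in this class, versican included, 2 fell, with a median log2 fold change of -0.66. Dcn encodes decorin, which coats collagen fibrils and binds TGF-β. It fell from 139, 123 and 141 CPM to 74.3, 85.5 and 73.4 CPM (1.73-fold lower, log2 fold change -0.79 ± 0.10, edgeR adjusted p = 0.00295). Bgn, the gene of the related biglycan, fell from 95.9, 98.3 and 102 CPM to 57.4, 74.6 and 58.1 CPM (1.56-fold lower, edgeR adjusted p = 0.0130). In both genes mutant replicate 2 was the highest mutant library and still lay under the lowest control. Without mutant replicate 1 the call of Bgn was lost (adjusted p = 0.0584), where the other 5 leave-one-out fits kept it and the lowest value was 0.00415. Lum (lumican) and Fmod (fibromodulin), which also steer fibril width, did not pass. Lum had 6.84 to 10 CPM in the controls and 4.71 to 7.47 CPM in the mutants (edgeR adjusted p = 0.185), and Fmod 1.08 to 2.13 CPM and 1.00 to 1.21 CPM (edgeR adjusted p = 0.305).

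Vcan encodes versican, a large chondroitin sulfate proteoglycan of loose matrix. Its level rested on 1 library, since control replicates 1 to 3 held 0.239, 2.78 and 0.0900 CPM and mutant replicates 1 to 3 held 0.393, 0 and 0.0322 CPM. Of 139 counts over the controls 124 were in control replicate 2, and the estimate of -2.78 ± 1.46 did not pass (edgeR adjusted p = 0.248). Control replicate 2 also had the highest level of the mesothelial marker Msln, singled out after its values were seen, with 2.51 CPM against at most 0.566 CPM in the other 5 libraries. Other mesothelial markers set it apart less. Upk3b had 0.892 and 1.17 CPM and Wt1 0.501 and 0.583 CPM in control replicates 1 and 2. Lrrn4 had 0.157 CPM in control replicate 2 and 0.135 CPM in control replicate 3. Muc16 was highest in control replicate 1, with 0.131 CPM. The part of these marker levels in the Vcan value was not tested.

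Fibronectin was the most abundant of the 41 transcripts per length and did not pass the test. Fn1, which encodes the adhesive glycoprotein of plasma and cell surfaces, had 1327, 1852 and 1531 CPM in the controls and 1831, 1502 and 2268 CPM in the mutants. The groups overlapped, and the estimate of 0.25 ± 0.17 on the log2 scale missed the threshold (edgeR adjusted p = 0.381). It was -0.15 at library totals and -0.35 in limma on log2(TPM + 1), where it did not pass either. Per length, in TPM (a length-corrected level that sums to the same total in every library), the Fn1 level was 347 ± 57.8 in control livers and 274 ± 63.8 in mutant livers (SD, n = 3 each). It thus made up 44.7%, 53.1% and 46.8% of the summed TPM of the 41 genes in control replicates 1 to 3 and 69.0%, 60.9% and 72.9% in mutant replicates 1 to 3, a share within the library that does not depend on scaling. The summed TPM of the other members was 360.9, 359 and 389.3 in the controls and 124.6, 133.8 and 124.7 in the mutants. Part of this drop is shared by the typical gene, whose median log2 fold change was -0.48 in limma on log2(TPM + 1).

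**Figure D3:**
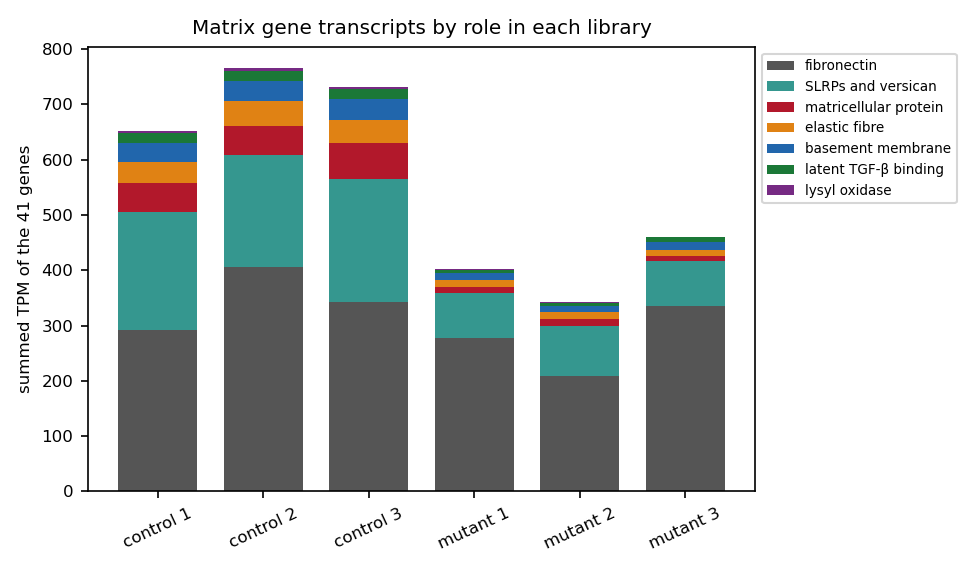
Summed TPM of the 41 matrix genes in each library (vertical axis), stacked by role. The fibronectin block is 291 to 407 TPM in the controls and 208 to 336 TPM in the mutants, while the blocks above it sum to 359 to 389.3 TPM in the controls and 124.6 to 133.8 TPM in the mutants. The typical gene is also lower in TPM in the mutants (median log2 fold change -0.48 in limma on log2(TPM + 1)).

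The order of levels per length was led in the controls by Fn1, Dcn (136 ± 10.9 TPM), Bgn (70.1 ± 2.99 TPM), Sparc (42.7 ± 5.14 TPM), Emilin1 (18.2 ± 4.17 TPM) and Ltbp4 (14.7 ± 1.02 TPM; SD, n = 3 each). The ranges of Emilin1 (13.4 to 21.1 TPM) and Ltbp4 (14.0 to 15.9 TPM) overlapped, as did those of Agrn (8.83 to 10.4 TPM) and Efemp1 (8.89 to 9.46 TPM), so these neighbours did not differ beyond their spread. The first 4 places were the same in the mutants, with 51.9 ± 2.27 TPM for Dcn, 29.6 ± 3.18 TPM for Bgn and 9.03 ± 0.895 TPM for Sparc. Below them the order changed. Agrn moved from place 7 to place 5, Postn from 10 to 21, Loxl2 from 18 to 31 and Thbs1 from 28 to 37. A mean of at least 1 TPM was reached by 28 of the 41 genes in the controls and by 14 in the mutants, and one of at least 10 TPM by 6 and by 3. TPM values share a fixed sum in each library, so a level in TPM also depends on the other genes. In limma on log2(TPM + 1) the typical gene was shifted by -0.48 in the mutants, and 63.6% of tested genes were lower. How many of all genes reach these TPM cuts is not given here, so the smaller mutant counts are not read as particular to the members.

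Ratios between members in the same library show unequal change without any scaling. The pairs were chosen after their values were seen and are given as a description. The ratio of Postn to Dcn, in TPM, was 0.0415, 0.0624 and 0.0634 in the controls and 0.00981, 0.00895 and 0.00941 in the mutants. That of Sparc to Dcn was 0.285, 0.321 and 0.337 against 0.182, 0.178 and 0.161, and that of Nid1 to Dcn 0.0538, 0.0569 and 0.0668 against 0.0190, 0.0241 and 0.0286. For these 3 pairs the mutant libraries lay below the controls, so periostin, osteonectin and nidogen transcripts were lower relative to decorin. The ratios of Bgn to Dcn (0.483 to 0.562 against 0.541 to 0.613) and of Lamc1 to Dcn (0.0296 to 0.0354 against 0.0248 to 0.0332) overlapped between the groups. Within families, Thbs1 to Thbs2 was 0.947 to 0.984 in the controls and 0.170 to 0.379 in the mutants, and Lamb1 to Lamb2 was 1.22 to 1.92 and 0.615 to 1.18. Nid1 to Nid2 was 4.00 to 7.97 and 1.69 to 3.69, with uncertain Nid2 values because its exons overlap those of Rtraf on the other strand. In each of these 3 families the first-named gene was lower relative to its paralog in every mutant library. Other families did not share this. Sparc to Sparcl1 was higher in the mutants, at 9.15 to 10.7 in the controls and 11.2 to 21.0 in the mutants. Loxl2 to Loxl1 overlapped, at 0.591 to 1.49 and 0.563 to 0.609.

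**Figure D4:**
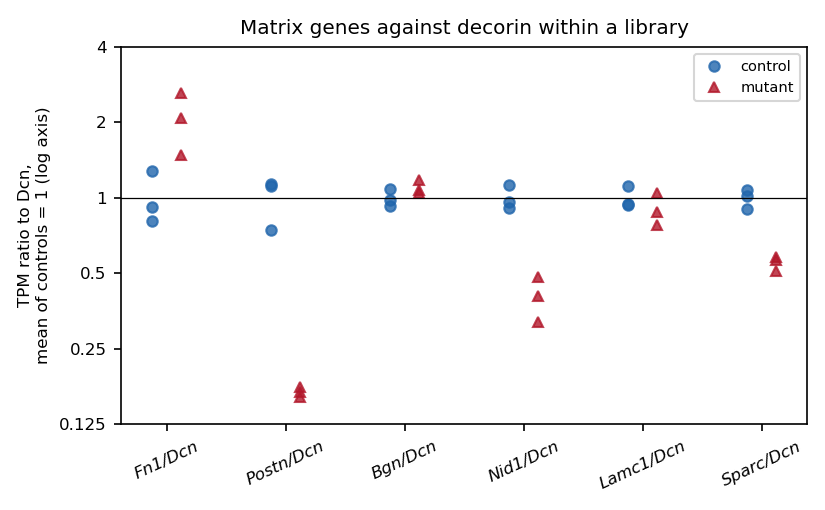
TPM ratio of 6 matrix genes to Dcn in each library, divided by the mean of the controls (vertical log axis). The mutant libraries lie below the controls for Postn, Nid1 and Sparc, above them for Fn1 (3.84 to 6.74 against 2.08 to 3.29 before division), and among or next to them for Bgn and Lamc1.

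Of other matrix glycoproteins and proteoglycans outside the 41, 50 genes were tested, and 13 were lower, 2 higher and 35 not called, with a median log2 fold change of -0.86. Of all tested genes 6.82% were lower and 6.64% higher. At library totals 21 of the 50 were lower and 1 higher, beside 31.6% and 2.05% of all tested genes. The leucine-rich Prelp fell from 43 ± 2.11 to 22.6 ± 0.911 CPM, Tgfbi, a TGF-β-induced adhesion protein, from 49.6 ± 4.21 to 25.2 ± 1.72 CPM, and Ecm1, which restrains TGF-β activation in liver, from 101 ± 7.41 to 47.7 ± 8.38 CPM (SD, n = 3 each, edgeR adjusted p = 0.00122, 0.00164 and 0.00246). Ntn1, the guidance cue netrin 1, fell from 10.5 ± 0.861 to 5.01 ± 0.274 CPM (edgeR adjusted p = 0.00473). The 2 that rose, named after their values were seen, were Lama3 and Vtn. Lama3, an α chain of epithelial laminin, went from 1.71 ± 0.440 to 5.83 ± 0.441 CPM (log2 fold change 1.76 ± 0.26, edgeR adjusted p = 0.00506). Vtn, the plasma adhesion protein vitronectin made by hepatocytes, went from 1299 ± 121 to 1973 ± 121 CPM, a log2 fold change of 0.60 (edgeR adjusted p = 0.00901) that shrank to 0.21 at library totals and was not called there.

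Among receptors and partners of the matrix 27 genes were tested: 8 were lower, 2 higher and 17 not called, with a median log2 fold change of -0.55. The shares over all tested genes were 6.82% lower and 6.64% higher. At library totals 17 of the 27 were lower and 1 higher, beside 31.6% and 2.05% of all tested genes. The thrombospondin receptor and fatty acid transporter Cd36 fell by 3.14 ± 0.22 on the log2 scale, the galactoside-binding lectin Lgals3 by 2.35 ± 0.24, and the integrin subunit Itgb5 by 0.55 ± 0.09 (edgeR adjusted p = 2.5e-04, 9.99e-04 and 0.00646). Sdc4, a cell-surface heparan sulfate proteoglycan, rose from 232 ± 22.2 to 435 ± 104 CPM (edgeR adjusted p = 0.0117). Of 31 tested enzymes that build or edit glycosaminoglycan chains, 4 fell and 27 did not pass (median log2 fold change -0.32), beside 6.82% of all tested genes lower. Those that fell were Ugdh, which makes the sugar donor UDP-glucuronate, the sulfatase Sulf2, the chondroitin synthase Chsy1 and the heparan sulfate polymerase Ext1, with log2 fold changes of -0.80, -0.88, -1.02 and -0.40. At library totals 17 of the 31 were called lower, beside 31.6% of all tested genes.

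In the TGF-β pathway, which drives matrix genes in stellate cells, 4 of 22 tested genes fell and 18 did not pass, with a median log2 fold change of -0.36. Of all tested genes 6.82% fell. At library totals 10 of the 22 were lower, beside 31.6% of all tested genes. Among those that fell, Lrrc32, which tethers latent TGF-β to the cell surface, the receptor gene Tgfbr2 and the ligand gene Tgfb1 decreased by 1.23, 1.00 and 0.77 on the log2 scale (edgeR adjusted p = 0.00338, 0.00456 and 0.0230). These lists and the members were chosen with earlier results of these data known.

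The marker counts below stand beside 6.82% of all tested genes lower and 6.64% higher. Of 10 stellate cell markers 7 fell and 3 did not pass, and their summed level was 164.7 to 211 CPM in the controls and 84.63 to 115.4 CPM in the mutants. The median log2 fold change was -1.18 for these markers and -0.99 for the matrix genes. Of 5 tested portal fibroblast markers Entpd2 and Gas6 fell and Cd34, Dpt and Thy1 did not pass. The sum of that list, mostly Gas6, was 86.17 to 103 CPM and 44.3 to 56.21 CPM. Smooth muscle markers had a summed level of 6.267 to 11.07 CPM and 5.077 to 13.51 CPM, and none of 4 tested passed. Sinusoidal endothelial markers fell in 3 of 8 cases, with sums of 128 to 218.9 CPM and 96.33 to 143.4 CPM. All 8 endothelial estimates were negative, and at library totals 7 of the 8 were lower, beside 31.6% of all tested genes. Markers of monocyte-derived macrophages fell in 6 of 8 cases (99.89 to 126.2 CPM and 44.72 to 63.71 CPM), and Kupffer cell markers in 1 of 6. All 6 Kupffer estimates were negative, and their sums were 194 to 278.2 CPM and 91.48 to 182 CPM. At library totals 5 of the 6 were lower, beside 31.6% of all tested genes. Neutrophil markers fell in 2 of 2 tested cases and T and B cell markers in 0 of 6, and of 3 red cell markers 1 rose. Mesothelial markers summed to 0.54 to 4.508 CPM and 0.0967 to 0.868 CPM, and of the 5 the 1 tested did not pass. Of the 5 adipocyte markers 2 were tested. Cfd, the gene of complement factor D, fell from 23.6, 9.51 and 9.97 CPM to 0.131, 0.0620 and 0.129 CPM (edgeR adjusted p = 3.5e-04). Car3, a carbonic anhydrase and nearly all of the list's summed level of 1746 to 2487 CPM in the controls and 579 to 1373 CPM in the mutants, had a log2 fold change of -1.01 without overlap and did not pass (edgeR adjusted p = 0.0508). Lep had 0 counts in all 6 libraries, Adipoq at most 0.0645 CPM and Plin1 at most 0.112 CPM. The sum of this list is therefore not read as a level of adipocytes. Of 4 biliary markers tested Sox9 was called higher, a call lost at library totals (edgeR adjusted p = 0.242), and Krt19, Krt7 and Epcam did not pass and overlapped between the groups. The sum of that list, mostly Sox9, was 6.833 to 8.999 CPM in the controls and 10.54 to 13.58 CPM in the mutants. Hepatocyte markers summed to 80090 to 91870 CPM and 95540 to 103300 CPM, with 5 of 8 higher. At library totals 2 of the 8 were higher and 1 lower. The defining hepatocyte markers were thus present in all 6 libraries, with Alb at 50356 CPM or more. The part of these marker levels in the matrix gene changes was not tested.

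In mm10 coordinates of GENCODE release M21, Postn (ENSMUSG00000027750.16) spans chr3:54361109-54391037, Thbs1 (ENSMUSG00000040152.8) chr2:118111876-118127133, Sparc (ENSMUSG00000018593.13) chr11:55394500-55423183, Nid1 (ENSMUSG00000005397.8) chr13:13437551-13512269, Loxl2 (ENSMUSG00000034205.16) chr14:69609068-69695834 and Fn1 (ENSMUSG00000026193.15) chr1:71585520-71653200. Dcn and Lum are near neighbours on chromosome 10, at chr10:97479609-97518143 and chr10:97565128-97572703. All 41 genes are annotated as protein-coding. Exons of 15 members overlap exons of another gene. In 6 of these (Efemp2, Loxl2, Loxl3, Ltbp3, Mfap4 and Nid2) the other gene had at least 10% of the member's counts, and without known strandedness their values are uncertain. Of these 6 Loxl2 was the one called.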

How the data were processed

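Liver RNA of 6 libraries was measured by poly(A) RNA sequencing. The submitters' processing notes name cutadapt, STAR and build mm10, with no versions. No source used here gives the gene counter, its annotation or the strandedness. What the authors deposited were estimated counts, not scaled between libraries, and TPM, which is length-scaled to a common total. Each deposited estimated count is its TPM times a gene and a library factor (largest relative deviation 5.72e-10 over 10983 genes), so counting error is only approximated.

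Estimated counts were rounded and tested with edgeR 4.0.16 (R 4.3.3): filterByExpr, TMM, quasi-likelihood F-test on group, Benjamini-Hochberg adjustment over 14286 genes, call at 0.05. Standard errors come from the F statistic. Named genes were all 41 members and up to 4 called genes with the smallest p, at a mean of at least 1 CPM in a group, of each further list. Members and lists were chosen with earlier results of these data known. The alternatives were other scalings and filters, DESeq2 1.42.0, limma 3.58.1 on log2(TPM + 1) and log2(TPM + 0.1), a replicate block and each library left out. On simulated negative binomial counts of 14286 genes, 45.9% of 98 2-fold and 74.5% of 102 4-fold changes were recovered, and 12 of 133 calls were false. In the data 1923 genes were called, far more than were changed in the simulation, so recovery in the data may differ. No 2 libraries were near-duplicates (chi-square of at least 47.7 per gene). Promoters came from a RefSeq table of GRCm38.p6 that held 26 of the 41 genes. GENCODE coordinates were matched by identifier without version. Protein sequences were not used here. The values of 1 gene of a further list are not reported here. No interval for single counts was computed, and the limit for a count of 0 covers counting error only.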

Additional observations from a re-analysis of the deposited data

How the results depend on the processing

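The 17 decreases and the absence of increases among the matrix genes kept their direction in all 17 alternatives (Thbs1 and Tnc were not tested in 2 of them), with 12 to 27 members lower. Of the 17 called genes 11 were called in every alternative that tested them, and Bgn, Efemp1, Tnc, Loxl1, Ltbp1 and Ltbp4 were each lost in at least 1. At library totals 27 members were lower, the median of tested members was -1.39 and 4801 of all genes were called, a scaling that moves all genes down. Totals without the major urinary protein genes gave a median of -1.21, beside -0.21 for all tested genes, of which 13.7% were lower. In limma on log2(TPM + 1), 7579 genes were called. On log2(TPM + 0.1) it was 7526, with a member median of -1.48 beside -0.55 for all genes tested there. On log2(TPM + 1) with no filter it was 6581, with 27 members lower beside 28% of all genes. The member median there was -0.71, beside -0.24 for all genes. In the filtered fit on log2(TPM + 1) 23 of 25 tested members were lower, beside 63.6% of all genes tested there. Some of the 25 passed its TPM filter through the controls alone, which favoured decreases. The log2 fold change of Fn1 turned to -0.15 at library totals and -0.35 in all 3 limma fits. DESeq2 added Fbn1, Fbln2, Lox and Ltbp3.

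Leaving out each library in turn gave 12 to 16 members lower, member medians from -1.09 to -0.95, and 882 to 1514 genes called in all. The cause was not tested, but fewer libraries enter each fit. Of all genes, 886, 956 and 1018 were called without control replicates 1, 2 and 3 and 882 without mutant replicate 1. Fbln1 turned to 0.30 without control replicate 2 and to 0.0084 without mutant replicate 3 (range -0.38 to 0.30), and Agrn to 0.03 and 0.066 on leaving out control replicate 2 and mutant replicate 1 (range -0.21 to 0.066). With the replicate number as a block, 16 members were lower and 1558 genes were called, and Ltbp1 was the member lost. Same-numbered libraries did not deviate together (r = 0.0708, -0.0103 and 0.106 for numbers 1 to 3), and not every library correlated best with its own number, so the block was not used.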
